A study of Mus musculus with 27 samples.

Results

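The Notch receptors Notch1, Notch2, Notch3 and Notch4, the ligands Jag1 and Dll1, and the target genes Hes1, Hey1, Hey2 and Heyl were examined across osteoblast differentiation of mouse calvarial cells. The 10 genes were taken as a named list of pathway members, matched by Ensembl identifier among the 37991 genes in each expression profile. The list was chosen with earlier results of these data known, so its comparisons with all genes are descriptions. The cells came from the skull vault of neonatal C57BL/6J-Col3.6 CFP mice aged 5 to 9 days, were expanded for 4 days, sorted for cyan fluorescent protein (CFP) and then grown with ascorbic acid and beta-glycerol phosphate, which drives matrix deposition and mineralisation. RNA was taken at 9 time points, every other day from day 2 to day 18, with 3 profiles per time point. All groups therefore shared the strain, the transgene, the sort and the medium, and differed only in day, so there was no untreated control. CFP was driven by a fragment of the collagen type I promoter (Col3.6), which is active from the pre-osteoblast stage on, and the sort preceded differentiation, so it did not fix the identity of the cells on later days. The labels named no separate animals or cultures.

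The 3 profiles of a day carried 1 barcode and came from 3 sequencing lanes, and their counts differed by no more than sampling noise (chi-square per degree of freedom from 0.999 to 1.02), so they were summed and each day was counted as 1 library. The study describes the profiles of a day as triplicate samples, and this choice sets the number of libraries in every test. The 9 libraries held 22470195 counts (day 10) to 62009157 counts (day 12). No 2 days could therefore be tested against each other, and change was tested only as a function of day across the 9 libraries. Among 11 osteoblast markers, 8 rose along the line in day fitted below, where 28.3% of all genes rose, and none fell, where 26.1% did. The marker counts that follow stand against these same shares. The 11 summed to 8708 CPM (counts per 1000000 counts of the scaled library) on day 2 and 26246 on day 18. Most of this was Col1a1 (4963 and 12724 CPM) and Col1a2 (3224 and 12649). Sp7, not called, went from 49.8 to 14.2 CPM. All 11 had counts on every day, although Bglap had 1 on day 4 and 1 on day 8. Markers of other cells moved as well: 6 of 7 monocyte and macrophage markers rose (19.1 to 1363 CPM summed, lowest on day 2 and highest on day 18), 5 of 5 adipocyte markers rose (2.20 to 201 CPM), and 7 of 8 mural and smooth muscle markers fell (6323 CPM on day 2, 1111 on day 16). Of 4 chondrocyte markers, 2 rose and 1 fell (393 CPM summed on day 2, 253 on day 16). The 7 endothelial markers summed to 6.20 to 28.1 CPM, and of the 4 that passed the filter on low counts Tek and Cdh5 rose and Kdr and Esam fell, while Tie1 was at 0 on every day and Emcn and Pecam1 at no more than 0.548 CPM. In such bulk RNA, fewer cells of a type and less RNA per cell cannot be told apart, and the part of these other cells in the results on the Notch genes was not tested.

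Notch receptors are single-pass membrane proteins that are activated by ligands of the Jagged and Delta-like families on a neighbouring cell. Binding exposes the receptor to cleavage by an ADAM protease and then by the gamma-secretase complex, and the released intracellular domain enters the nucleus, binds RBPJ and Mastermind-like coactivators and turns on Hes and Hey genes, which encode transcriptional repressors of the basic helix-loop-helix class. In the osteoblast lineage, Notch signalling is known for holding progenitors back from maturation, and Notch3 and Heyl are also known from mural cells of blood vessels.

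RBPJ binds the core TGGGAA, whereas Hes and Hey repressors bind the class C E box CACGCG and the N box CACNAG. These letters were searched on both strands in the 250 bases before the gene start in RefSeq (GRCm38.p6), which was available for 7 of the 10 genes (8 starts, of which Dll1 had 2), without Hes1, Hey1 and Heyl. The core TGGGAA occurred in 1 of these 7 genes, Hey2, against 21.6% of 32851 promoters of the same length. CACGCG occurred in 3 of 7 (Notch2, Jag1 and the second start of Dll1), against 7.62% of all promoters, and CACNAG in 3 of 7 (Notch1, Notch2 and Notch3), against 36.7%. The promoters of Notch3 and Jag1, a receptor and a ligand that rose with day, and of Hey2 are shown 5′ to 3′ on the strand of the gene, with the matches on either strand in capitals. That of Notch3 (chr17:32166891-32167140, minus strand) held CACNAG 204 and 159 bases before the start, that of Jag1 (chr2:137116521-137116770, minus strand) held CACGCG 249 and 171 bases before it, and that of Hey2 (chr10:30842784-30843033, minus strand) held TGGGAA 207 bases before it. A match describes letters in the window and is no measurement of binding.
Notch3: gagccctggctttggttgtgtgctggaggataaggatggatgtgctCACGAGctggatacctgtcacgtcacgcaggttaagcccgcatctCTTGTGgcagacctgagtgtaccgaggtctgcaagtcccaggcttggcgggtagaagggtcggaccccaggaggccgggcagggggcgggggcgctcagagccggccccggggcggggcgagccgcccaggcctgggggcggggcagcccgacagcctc
Jag1: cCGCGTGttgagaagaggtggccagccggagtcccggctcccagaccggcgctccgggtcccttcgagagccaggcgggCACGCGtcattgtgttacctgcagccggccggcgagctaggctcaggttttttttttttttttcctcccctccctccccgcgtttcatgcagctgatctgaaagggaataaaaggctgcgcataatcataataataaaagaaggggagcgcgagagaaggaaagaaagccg
Hey2: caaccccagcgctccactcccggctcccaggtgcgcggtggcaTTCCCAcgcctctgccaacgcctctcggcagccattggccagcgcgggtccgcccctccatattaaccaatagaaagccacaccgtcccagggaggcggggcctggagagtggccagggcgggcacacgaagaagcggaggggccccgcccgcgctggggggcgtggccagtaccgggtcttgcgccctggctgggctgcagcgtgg

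Per kilobase of the longest annotated transcript, a length chosen after the data were seen, the order over the 9 days was Notch2 (mean 14.9 ± 1.93 CPM per kilobase, SD over days), Jag1 (7.20 ± 2.41), Hes1 (6.95 ± 3.39), Notch1 (3.54 ± 0.634), Notch3 (2.42 ± 0.699), Heyl (1.07 ± 1.19), Hey1 (0.971 ± 0.635), Hey2 (0.347 ± 0.227), Dll1 (0.0721 ± 0.0579) and Notch4 (0.0651 ± 0.0342). Among neighbours in this order, Jag1 and Hes1, Heyl and Hey1, Hey1 and Hey2, and Dll1 and Notch4 differed by less than the larger spread over days of the pair. Heyl, whose spread exceeded its mean, also differed by less than this spread from Hey2, Dll1 and Notch4. Notch2, Notch1, Notch3, Jag1 and Hes1 reached 1 TPM (RSEM's length-corrected transcript abundance, scaled here to the upper quartile of each profile) on all 9 days, Hey1 and Heyl on 6, Hey2 and Notch4 on 2 and Dll1 on 1. The order depends on the length used. By mean TPM over the 9 days, Notch2 was still highest (23.7), but Notch1 (14.5) was level with Hes1 (14.6) and Jag1 (14.2). All 10 genes passed the filter on low counts.

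A straight line in day was fitted to all genes and tested by the quasi-likelihood method of edgeR, and P values were adjusted after Benjamini and Hochberg over all genes, an adjusted P under 0.05 being called. Along this line, 4 of the 10 genes rose (Notch3, Jag1, Hey1 and Heyl), where 28.3% of the 15659 genes tested rose, and 1 fell (Hes1), where 26.1% of all genes fell. The median fitted change from day 2 to day 18 was 0.91 log2 units over the 10 genes and 0.05 over all genes tested. With a natural spline, which also finds peaks and dips, 9 of 10 changed with day, all but Notch4, where 57.5% of 16256 genes did. Changes are in log2 units ± SE of the fit over the 9 libraries, and are those of the line from day 2 to day 18 unless a spline or phase is named.

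**Figure D1:**
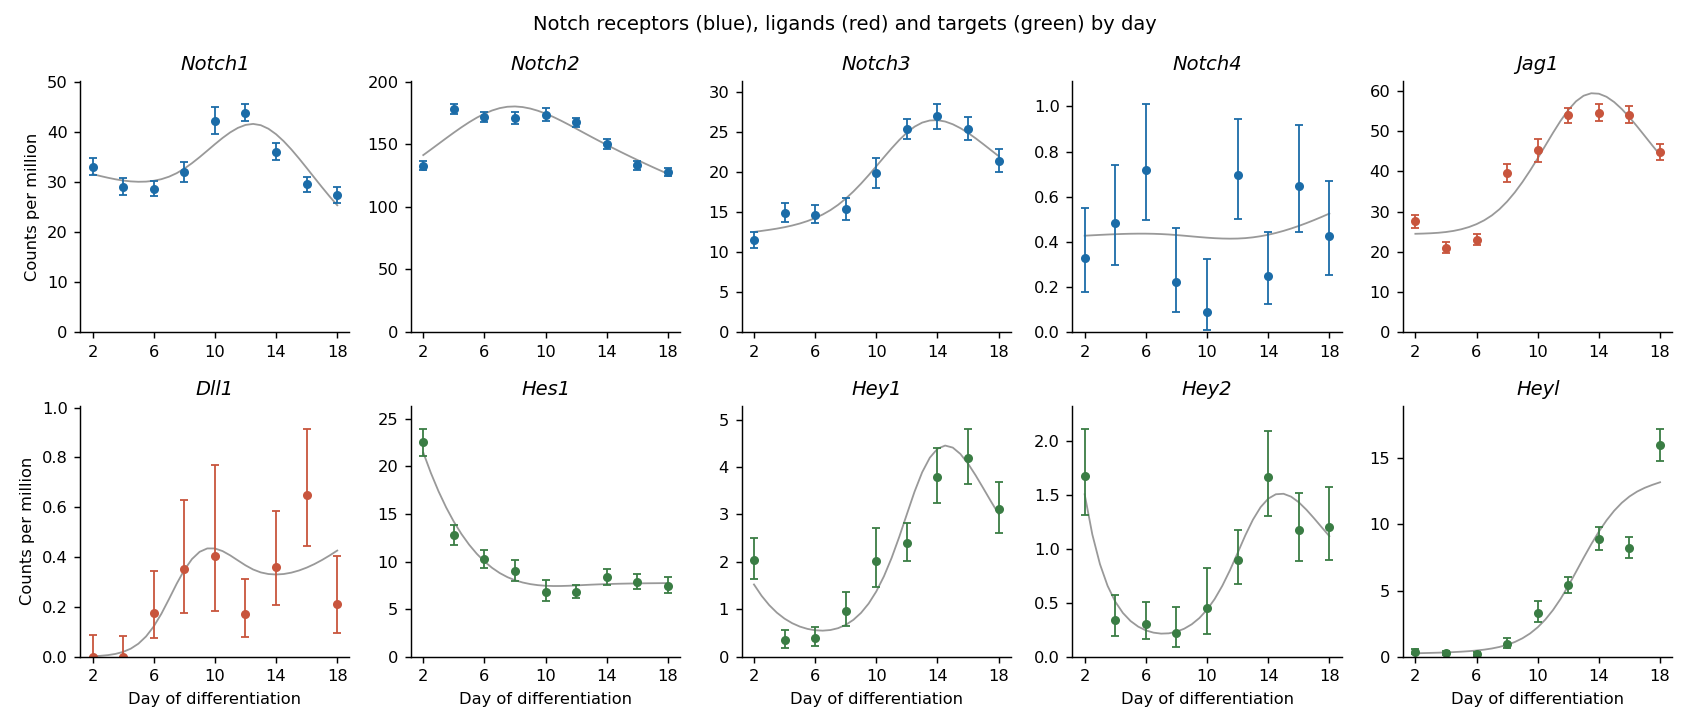
CPM (y axis, each panel from 0 to its own maximum) of the 10 genes by day of differentiation (x axis). Points are the summed library of each day, bars exact Poisson 95% intervals, which cover counting error only, and grey lines the fitted spline. Hes1 was highest on day 2, Heyl on day 18, and Hey1 and Hey2 were low from day 4 to day 8.

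Notch2 (ENSMUSG00000027878, chr3:97817461-97954290, plus strand; positions are those of NCBIM37, the build of the files) was the most abundant receptor. It held 133 at day 2, 178 at day 4, 172 at day 6, 171 at day 8, 174 at day 10, 167 at day 12, 150.1 at day 14, 133 at day 16 and 128 at day 18 (CPM). The level was high from day 4 to day 12 and lower on day 2 and from day 14 on, and the highest and lowest days differed 1.40-fold. No change along the line was called (-0.27 ± 0.18, edgeR adjusted P = 0.229), whereas the spline found a range of 0.51 log2 units (edgeR adjusted P = 0.00771). Without day 2, the libraries gave a fall along the line of -0.55 log2 units (adjusted P = 0.00787). Per kilobase of the longest transcript, Notch2 made up 71.8% of the 4 receptors on day 2, 77.2% on day 4 and 66.5% on day 14. These shares depend on the length used. In TPM, Notch2 and Notch1 stood at 19.1 and 13.6 on day 2 and at 24.9 and 20.5 on day 10. The day 10 value of Notch1 averages lanes at 32.8, 13.8 and 14.8 TPM, to which RSEM assigned different lengths (1918, 4434 and 4173 bases).

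Notch1 (ENSMUSG00000026923, chr2:26313423-26372183, minus strand), the receptor most studied in development and leukaemia, held 33.1 at day 2, 29.1 at day 4, 28.7 at day 6, 32.0 at day 8, 42.3 at day 10, 43.9 at day 12, 36.1 at day 14, 29.6 at day 16 and 27.4 at day 18 (CPM). It was highest on days 10 and 12, whose intervals overlapped each other and not those of the other days, and the highest level was 1.60 times the lowest. The line showed no call (0.03 ± 0.25, edgeR adjusted P = 0.917), and the sign of this small value changed under several alternatives. The spline range was 0.71 log2 units (edgeR adjusted P = 0.00701), with an adjusted P of 0.0671 without day 12 and a range of 1.22 log2 units without day 18. The long non-coding RNA genes 0610009E02Rik and Gm13568 overlap Notch1 on the other strand, and since the strand of counting was not given in the sources used here, their reads cannot be told apart from those of Notch1.

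Notch3 (ENSMUSG00000038146, chr17:32257765-32303825, minus strand) was the receptor that rose. Its levels were 11.4 at day 2, 14.9 at day 4, 14.7 at day 6, 15.3 at day 8, 19.8 at day 10, 25.3 at day 12, 26.9 at day 14, 25.3 at day 16 and 21.4 at day 18 (CPM). Every day from day 10 on was above every day up to day 8. The fitted rise was 1.14 ± 0.22, edgeR adjusted P = 0.00156, and it was called in 17 of 17 alternatives. Its share of the 4 receptors per kilobase went from 8.08% on day 2 to 16.6% on day 16, and the ratio of Notch2 to Notch3 from 8.89 on day 2 to 4.02 on day 16. Notch3 is commonly found in mural and smooth muscle cells, whose summed markers moved the opposite way (6323 CPM on day 2 and 1129 on day 18). Acta2 alone held 5270 and 827 CPM of these sums. Rgs5 went from 5.64 CPM on day 2 to 2.22 on day 18. Pdgfrb, a receptor of pericytes and fibroblasts, held 160 CPM on day 2 and 187 on day 18. The part of these cells in the rise of Notch3 was not tested. A long non-coding RNA gene, Gm17276, overlaps Notch3 on the other strand.

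Notch4 (ENSMUSG00000015468, chr17:34701213-34725448, plus strand), a receptor known from endothelial cells, was close to the limit of counting. Its summed counts were 14.0 at day 2, 21.0 at day 4, 33.0 at day 6, 7.00 at day 8, 2.00 at day 10, 41.0 at day 12, 11 at day 14, 32.0 at day 16 and 18.0 at day 18, and the highest level was 0.720 CPM on day 6. The level went up and down over the days. When the days were ranked by level, 8 of 8 neighbouring pairs overlapped, which does not test order in day. The same held for Dll1 and Hey2, for which the spline called a change. Days further apart in level did separate beyond counting error. The exact Poisson intervals ran from 0.496 to 1.01 CPM on day 6 and from 0.499 to 0.944 on day 12. They ran from 0.0898 to 0.460 CPM on day 8 and from 0.0109 to 0.326 on day 10. No change was called along the line (0.18 ± 0.83, edgeR adjusted P = 0.871) or with the spline (adjusted P = 0.990). Its share of the receptors never exceeded 0.518%, and the endothelial markers summed to at most 28.1 CPM. The pseudogene Gm20462 overlaps Notch4 on the other strand.

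**Figure D2:**
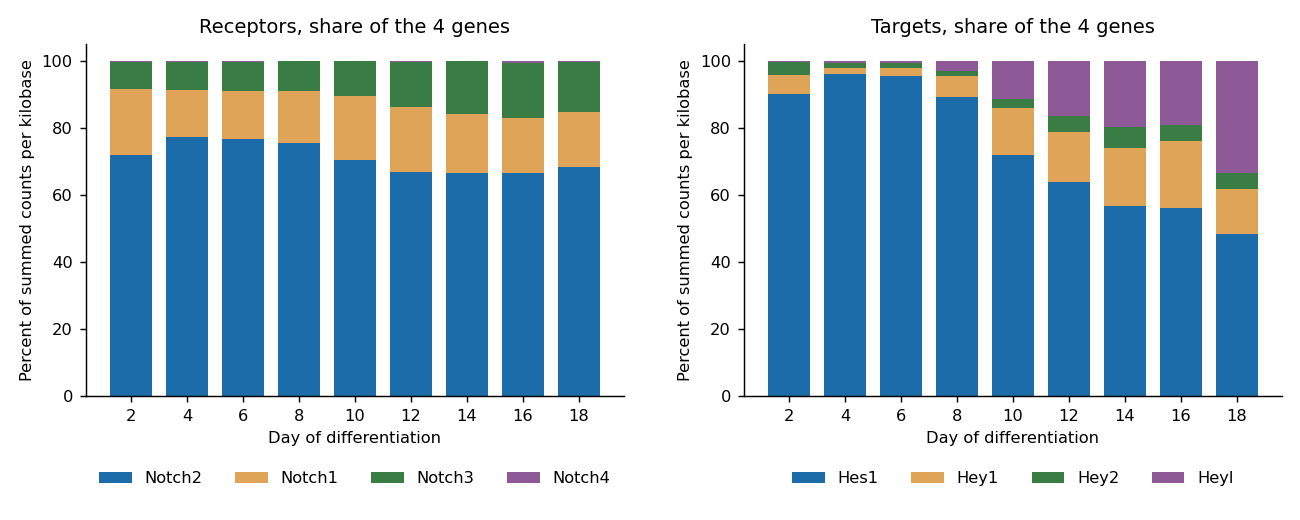
Share of each gene (y axis, percent of summed CPM per kilobase of the longest transcript) among the 4 receptors (left) and the 4 targets (right) by day (x axis). By this length, Notch2 stayed between 66.5% and 77.2% of the receptors, while Hes1 went from 90.2% to 48.5% of the targets and Heyl from 0.485% to 33.6%. In TPM, Notch1 was closer to Notch2.

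The ligand Jag1 (ENSMUSG00000027276, chr2:136907192-136942380, minus strand), a Jagged ligand expressed in bone-forming cells, held 27.6 at day 2, 21.0 at day 4, 23.0 at day 6, 39.6 at day 8, 45.2 at day 10, 54.0 at day 12, 54.6 at day 14, 54.1 at day 16 and 44.8 at day 18 (CPM). The 3 early days lay below all later ones, and days 12 to 16 overlapped at the top. The fitted rise was 1.31 ± 0.30, edgeR adjusted P = 0.00423, called in 17 of 17 alternatives. The spline placed its highest day at 14, with a range of 1.28 log2 units (edgeR adjusted P = 1.29e-04), which was 1.92 log2 units without day 2. Relative to the main receptor per kilobase, Jag1 was 0.220 times Notch2 on day 4 and 0.761 times Notch2 on day 16.

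Dll1 (ENSMUSG00000014773, chr17:15504318-15513836, minus strand), a Delta-like ligand, had no count on days 2 and 4 and few later. The summed counts were 0 at day 2, 0 at day 4, 8.00 at day 6, 11 at day 8, 8.94 at day 10, 10.1 at day 12, 16.0 at day 14, 32.1 at day 16 and 9.00 at day 18. By a limit of 3 counts, a count of 0 allowed up to 0.0701 CPM on day 2 and 0.0691 on day 4. The exact Poisson 95% interval reached 0.0863 and 0.0850 CPM on these days. Day 16 held 0.650 CPM (exact Poisson 95% interval from 0.444 to 0.916). The line was not called (3.30 ± 1.50, edgeR adjusted P = 0.0859), although it was without day 18 (adjusted P = 0.0389) and with DESeq2 (adjusted P = 0.0199). The spline called a change (adjusted P = 0.0211) that was lost without day 2 (adjusted P = 0.153) or day 4 (adjusted P = 0.0919), and its fitted range is not given as a fold because both first days were at 0. The non-coding gene A930024N18Rik overlaps Dll1 on the other strand.

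The targets moved in different directions. Hes1 (ENSMUSG00000022528, chr16:30064470-30067882, plus strand), a repressor and the best known Notch target, held 22.5 at day 2, 12.7 at day 4, 10.2 at day 6, 9.03 at day 8, 6.85 at day 10, 6.80 at day 12, 8.34 at day 14, 7.83 at day 16 and 7.47 at day 18 (CPM). Day 2 stood above all other days, day 4 above the rest, and from day 8 to day 18 the intervals of days next to each other in level overlapped. The fitted fall was -1.32 ± 0.31, edgeR adjusted P = 0.00456, called in 17 of 17 alternatives, and it was -0.75 log2 units (adjusted P = 0.0375) without day 2. Its mean was 15.2 CPM over days 2 to 6, 7.56 over days 8 to 12 and 7.88 over days 14 to 18.

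Heyl (ENSMUSG00000032744, chr4:122910799-122927118, plus strand), a Hey family repressor, moved furthest of the 10. It held 0.374 at day 2, 0.253 at day 4, 0.196 at day 6, 0.989 at day 8, 3.34 at day 10, 5.39 at day 12, 8.90 at day 14, 8.21 at day 16 and 16.0 at day 18 (CPM). Days 2 to 6 overlapped at the bottom, each day from 8 to 14 was above the one before it, and day 18 was 81.5 times day 6. The fitted rise of 6.47 ± 0.71, edgeR adjusted P = 7.99e-05, was called in 17 of 17 alternatives and lay between 5.99 and 6.98 log2 units over them. For comparison, 10% of all genes tested had a fitted change above 2.94 log2 units in size. The summed osteoblast, macrophage and adipocyte markers were also higher on day 18 than on day 2, whereas the mural markers were lower. The part of any of these cells in the rise of Heyl was not tested.

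Hey1 (ENSMUSG00000040289, chr3:8663362-8667039, minus strand), which encodes a repressor known from vessel and bone cells, dipped and then rose. It held 2.03 at day 2, 0.346 at day 4, 0.393 at day 6, 0.957 at day 8, 2.03 at day 10, 2.39 at day 12, 3.78 at day 14, 4.2 at day 16 and 3.11 at day 18 (CPM). Days 4 and 6 were the lowest, day 2 was level with days 10 and 12, and days 14 to 18 were the highest. The spline range was 2.97 log2 units (edgeR adjusted P = 0.00156), called in 17 of 17 alternatives. The line was called with little margin (2.12 ± 0.80, edgeR adjusted P = 0.0447). Leaving out any 1 of the 8 days from 4 to 18 ended this call (adjusted P from 0.0565 to 0.107), while without day 2 the rise was 4.27 log2 units (adjusted P = 0.00130).

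Hey2 (ENSMUSG00000019789, chr10:30552165-30562607, minus strand), the family member known from heart and arterial cells, was also low after day 2. Its values were 1.68 at day 2, 0.346 at day 4, 0.305 at day 6, 0.223 at day 8, 0.451 at day 10, 0.899 at day 12, 1.67 at day 14, 1.18 at day 16 and 1.2 at day 18 (CPM). Day 2 and day 14 were the highest and overlapped, and days 4 to 10 overlapped at the bottom, with 7 counts on day 8. The spline range was 2.70 log2 units (edgeR adjusted P = 0.00148), called in 17 of 17 alternatives. The line, which joins both high ends, was not called (0.68 ± 0.85, edgeR adjusted P = 0.525), but without day 2 it gave a rise of 3.02 log2 units (adjusted P = 0.00867).

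Among the days left out in turn, the lines of Notch2 and Hey2 were called only without day 2, and that of Hey1 was steeper without it. In the day 2 library some other genes stood above day 4, among them the osteoblast genes Sp7 (49.8 CPM on day 2 and 7.51 on day 4) and Alpl (13.8 and 1.11), the endothelial receptor Kdr (4.47 and 0.645) and the cartilage proteoglycan Acan (5.54 and 1.18), which were picked after their values were seen. Other markers of the same cells stood below day 4, such as the collagen gene Col1a1 (4963 CPM on day 2 and 6872 on day 4), the matrix gene Spp1 (276 and 637), the chondrocyte factor Sox9 (43.4 and 73.4) and the endothelial cadherin Cdh5 (2.13 and 2.83). The drop from day 2 to day 4 was 22.5 to 12.7 CPM for Hes1, 2.03 to 0.346 for Hey1 and 1.68 to 0.346 for Hey2. With 1 library on each day, these drops have no replicate check, and day 2 and the handling of its library cannot be told apart. Per kilobase, the 4 targets summed to 17.0 CPM on day 2, 6.50 on day 10 and 10.5 on day 18, while the 4 receptors summed to 17.6, 23.5 and 17.8 on these days.

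Between the early (2 to 6) and the middle days (8 to 12), the 3 days of a phase taken as its samples, Jag1 and Heyl rose, 2 of 10 genes where 17.3% of all genes rose, and Hes1 fell, 1 of 10 where 13.6% of all genes fell. The change was 0.96 ± 0.15, edgeR adjusted P = 0.00459 for Jag1, 3.57 ± 0.62, edgeR adjusted P = 0.00555 for Heyl, and -1.0 ± 0.27, edgeR adjusted P = 0.0217 for Hes1. The call for Hes1 was lost without day 10 or day 12 (adjusted P = 0.0799 in each case), and its change was -0.61 log2 units without day 2. Notch3 stood just outside the threshold (0.56 ± 0.19, edgeR adjusted P = 0.0507), and was called without day 8 (adjusted P = 0.00978). Without day 8 Notch1 was called too (0.51 log2 units, adjusted P = 0.0157), without day 2 Hey1 (2.27 log2 units, adjusted P = 0.0149), and without day 6 Dll1 (adjusted P = 0.0118).

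Between the middle and the late days (14 to 18), edgeR called 0% of the 15659 genes and none of the 10, while 2557 genes and 3 of the 10 (Notch1, Notch2 and Heyl) had an unadjusted P under 0.05. DESeq2 called 570 genes and 1 of the 10, Heyl (adjusted P = 0.0249). The values were 1.75 ± 0.51, edgeR adjusted P = 0.209 for Heyl, -0.32 ± 0.12, edgeR adjusted P = 0.251 for Notch2, and -0.34 ± 0.15, edgeR adjusted P = 0.294 for Notch1. The mean level of Heyl was 0.275 CPM over the early, 3.24 over the middle and 11 over the late days, that of Hey1 was 0.924, 1.79 and 3.7, and that of Hey2 was 0.778, 0.524 and 1.35. The spread within the phases includes change from day to day, which widens the error of these values.

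**Figure D3:**
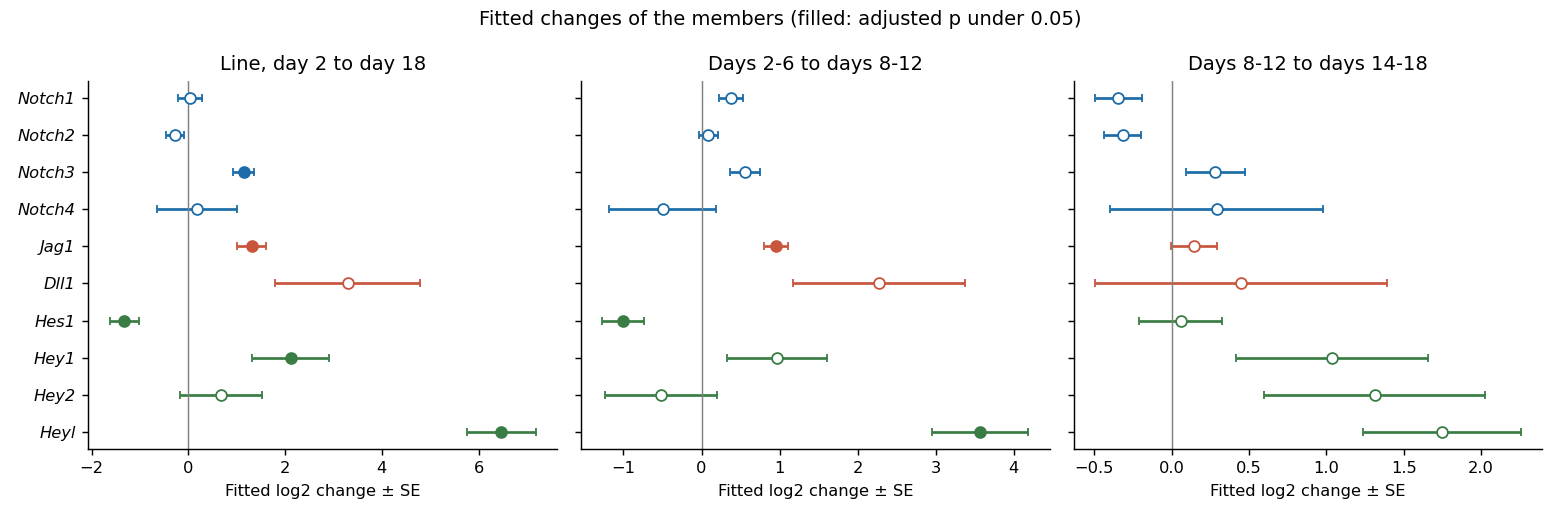
Fitted log2 changes (x axis, ± SE) of the 10 genes (y axis) along the line from day 2 to day 18, from days 2-6 to days 8-12, and from days 8-12 to days 14-18, on separate scales. Filled points had an edgeR adjusted P under 0.05. Heyl moved furthest along the line (6.47), and no point is filled in the right panel.

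The length that RSEM assigned to a gene affected some TPM values. The effective length, an average over the isoforms to which the reads of a profile were given, ranged from 1918 to 8724 bases for Notch1, from 12.5 to 6312 for Notch4, from 266 to 4258 for Heyl and from 472 to 3302 for Dll1. It was constant for Notch3, Hey1 and Hey2 and nearly so for Notch2. For Notch1 the TPM was therefore highest on day 10 (20.5 ± 10.7 TPM, SD over 3 lanes) and lowest on day 16 (7.48 ± 2.33), a range of 2.74-fold, where the counts were highest on day 12 and ranged 1.60-fold. Notch4 reached 10.9 ± 18.9 TPM on day 10 from 2 counts in all. With the length of the longest transcript in place of the effective length, Notch4, Dll1 and Hey2 reached 1 CPM per kilobase on no day, and Hey1 and Heyl on 4 days each. For Notch2, counts and TPM had similar ranges, 1.40-fold and 1.41-fold.

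**Figure D4:**
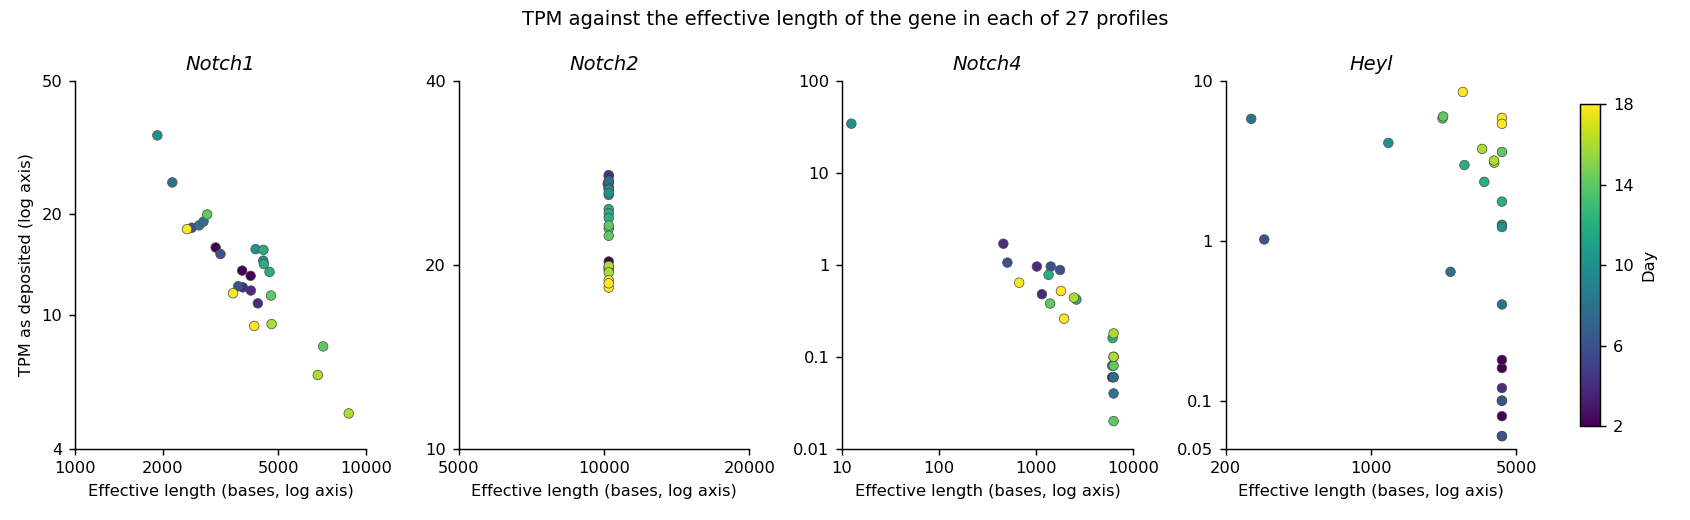
TPM as deposited (y axis, log scale) against the effective length of the gene (x axis, bases, log scale) in each profile, coloured by day, for Notch1, Notch2, Notch4 and Heyl. The 2 profiles of day 10 with Notch4 at 0 are not drawn. The effective length of Notch2 stayed between 10177 and 10227 bases, while that of Notch4 ran from 12.5 to 6312.

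Of 45 further pathway genes, 36 passed the filter, of which 11 rose and 7 fell along the line, where 28.3% of all genes rose and 26.1% fell, with a median of 0.20 log2 units against 0.05 over all genes. The counts of the single lists that follow are small and stand against these same shares. Among the other ligands, Dlk1 and Dlk2 passed. Dlk1, a Delta-like protein without the receptor-activating domain that marks progenitors, rose (3.74 ± 0.91 log2 units, edgeR adjusted P = 0.00547), from 30.2 CPM on day 2 to 141 on day 18, and per kilobase it was 0.621 times Jag1 on day 6 and 4.03 times Jag1 on day 12. Dlk2, its relative, fell (-3.96 ± 0.68 log2 units, edgeR adjusted P = 7.71e-04), from 1.82 CPM on day 2 to 0.0707 on day 18. Jag2, Dll3 and Dll4, whose summed counts over all days were 20, 20 and 7, did not pass the filter.

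Of 5 glycosyltransferases, which modify the receptors, Mfng and Poglut1 rose. Poglut1, which adds glucose to the receptor, went from 48.8 CPM on day 2 to 62.8 on day 18 (0.38 ± 0.11 log2 units, edgeR adjusted P = 0.0151). Mfng, a Fringe enzyme, had no count on days 6, 8 and 10 and held 0.872 CPM on day 18 (edgeR adjusted P = 6.95e-04), and its fitted change is not given as a fold because 3 days were at 0. Of 9 proteases and gamma-secretase subunits, 3 rose and none fell (28.3% and 26.1% of all genes). The subunit Psenen rose by 0.87 ± 0.12 log2 units, edgeR adjusted P = 2.79e-04 (29.2 CPM on day 2 and 50.5 on day 18), the receptor-cleaving protease Adam17 by 0.46 ± 0.14 log2 units, edgeR adjusted P = 0.0149, and Aph1c by 2.91 ± 0.77 log2 units, edgeR adjusted P = 0.00887. Aph1c is a near copy of Aph1b, between which reads could be split, so its value is uncertain. Ncstn, a core subunit of the complex, was not called (-0.12 log2 units).

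Of 8 genes of the nuclear complex and its corepressors, 2 rose and 4 fell (28.3% and 26.1% of all genes). The coactivators Maml2 (1.70 ± 0.29 log2 units, edgeR adjusted P = 7.41e-04) and Maml3 (0.99 ± 0.26 log2 units, edgeR adjusted P = 0.00867) rose, Maml2 from 47.1 CPM on day 2 to 116 on day 18. Rbpj itself, Spen and Hdac1 fell, with Rbpj at -0.47 ± 0.18 log2 units, edgeR adjusted P = 0.0485. Of 12 genes of endocytosis and turnover, 11 passed the filter, 3 rose and 2 fell (28.3% and 26.1% of all genes). The ubiquitin ligase genes Dtx3 (1.82 ± 0.32 log2 units, edgeR adjusted P = 8.76e-04) and Dtx4 (1.55 ± 0.30 log2 units, edgeR adjusted P = 0.00140) rose, and Neurl1a, which encodes a ligase that acts on ligands, fell (-2.39 ± 0.43 log2 units, edgeR adjusted P = 0.00105). Fbxw7, the ligase subunit that marks the intracellular domain for degradation, fell (-0.78 ± 0.15 log2 units, edgeR adjusted P = 0.00132). Of 6 other Hes and feedback genes, only Hes6 passed the filter and it was not called (0.11 ± 0.41 log2 units, edgeR adjusted P = 0.835), while Hes2 had no count on any day and Hes5 had 2 in all.

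**Figure D5:**
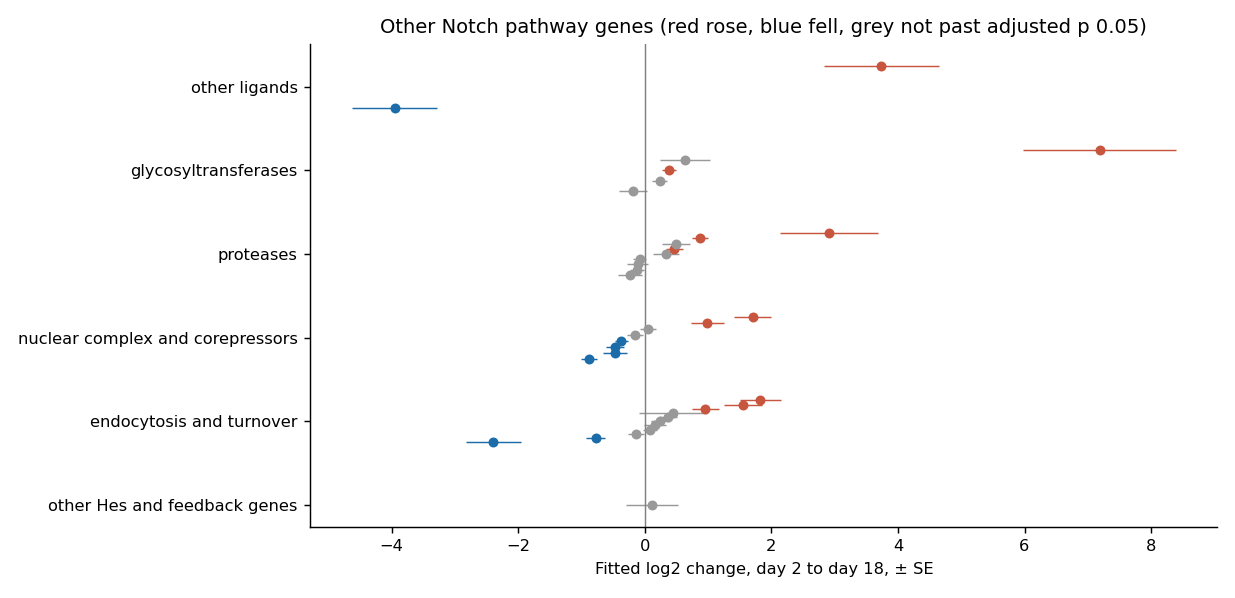
Fitted log2 change from day 2 to day 18 (x axis, ± SE) of the 36 further pathway genes that passed the filter, by list (y axis). Red points rose and blue points fell with an edgeR adjusted P under 0.05, and grey points were not called. The nuclear complex list holds 2 red and 4 blue points.

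Over the 9 days, levels of some of the 10 genes ran together. Pearson's r of log2 CPM was 0.919 between Heyl and Jag1, 0.881 between Heyl and Notch3, 0.858 between Jag1 and Notch3, and 0.804 between Hey1 and Hey2, and it was -0.820 between Hes1 and Notch3. These values are descriptions over 9 libraries that share a time course. Among 7594 genes averaging at least 10 TPM, the pattern of Heyl was most like that of Plxdc2 and 1190002N15Rik (r = 0.997 and 0.994), that of Notch3 like Pfkm and March6 (0.990 and 0.987), that of Hes1 like Stk40 and Skil (0.988 and 0.988), and that of Jag1 like Sgcd and Foxn3 (0.981 and 0.980). Hey1 was most like Gm9780 and Plac9 (0.981 each), which hold the same values and share reads, Hey2 like Cdc42bpa and Sept11 (0.955 and 0.953), Notch2 like Lamb1 and Zic1 (0.948 and 0.944) and Notch1 like Igbp1 and Chd4 (0.914 and 0.901). The nearest to the sparse genes Dll1 (Rpl22l1 and Gm17447, 0.966 and 0.958) and Notch4 (Nsmce2 and 2310016M24Rik, 0.880 and 0.859) rest on 95.1 and 179 counts in all.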

How the data were processed

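Total RNA of calvarial cells at 9 time points was amplified, sequenced and aligned by the authors with Bowtie 0.12.9 to the NCBIM37 transcriptome and quantified with RSEM, version 1.2.8 in the submitters' processing notes. The deposited expected counts are RSEM's estimated counts per gene, not normalized. The deposited TPM and FPKM values are scaled by the authors' RSEM run to the transcripts and fragments of a profile, with the deposited effective length of each gene. Here the expected counts of the 3 lane profiles of a day (7331125 to 20888956 counts each) were summed and rounded. The 9 libraries were fitted in R 4.3.3 with edgeR 4.0.16, scaled by the upper quartile as in the study's methods. Genes were kept by filterByExpr at a minimum of 10 counts, and the quasi-likelihood test was called at a Benjamini-Hochberg adjusted P under 0.05. The fits used a straight line, a natural spline with 3 degrees of freedom, and 3 phases of 3 days. CPM used the same factors. TPM was divided by the 75th percentile of values above 0 of each profile. Exact Poisson intervals and the limit of 3 counts behind a zero cover only counting error, and P values measure scatter between libraries around a curve in day, which may be technical. The fits were first tested on simulated counts. Alternatives were DESeq2 1.42.0, TMM factors, no filter, each day or lane left out, the 27 profiles as samples, and other levels. Gene symbols came from the NCBIM37 annotation (37205 of 37991 matched). Named were the 10 members, for each pathway list up to 3 called genes with the largest fitted change, and 2 genes nearest to each member. Other genes were added after their values were seen. Some genes of the pathway lists are counted with their list and not reported here by name. The members and lists were chosen with earlier results of these data known. Length per kilobase was chosen after seeing the data.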

Additional observations from a re-analysis of the deposited data

How the results depend on the processing

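Under the alternatives, 178 counts were taken, of called genes and of gene and day pairs that reached a level threshold. Of these, 159 were equal to the value reported, also where both were 0, or within 1.5 times of it. Of 661 fits of single genes, 601 kept both direction and call, where a spline range is never negative and so could not change direction. Of the others, 29 gained and 15 lost a call, and 16 changed sign. The cause of these changes was not tested. From early to middle days, the 27 profiles taken as samples called 9559 genes and 6 of the 10 Notch genes, of which 5 rose, and with a replicate block 9561 genes, 6 and 5. Leaving out 1 day gave 2142 (without day 10) to 6252 (without day 8) genes, with 2 to 5 of the 10 called and 2 to 4 rising. From middle to late days, the 27 profiles called 5630 genes and 5 of the 10, with a replicate block 5419 and 5, DESeq2 570 and 1, and leaving out 1 day 0 to 353 genes (without day 12). The lanes of a day are not separate cultures, so these profile counts measure lane spread. Same-numbered profiles deviated together with a mean correlation of 0.00813 (from -0.0593 to 0.0761) after scaling for depth. Since these deviations were no more than sampling noise, the value cannot show whether a number names the same lane on each day. The totals did follow the number in part. Profile 1 had the lowest total on every day, such as 13794218 counts on day 2 against 14243106 and 14243121. The signs that changed were all of changes not called. The line for Notch1 was -0.00297 with DESeq2, -0.0125 with TMM factors, -0.00686 without a filter, and -0.0661 to 0.278 over days left out. That for Notch4 was -0.172 to 0.518. From early to middle days, leaving out 1 day gave -0.0397 (without day 2) to 0.159 for Notch2 and -1.23 to 0.728 (without day 2) for Hey2. From middle to late days, it gave -0.0915 to 1.44 for Notch4, -0.0619 to 0.761 for Dll1 and -0.00447 to 0.213 for Hes1, which was -0.0161 without replicate 2. Counts of under 10 on a day, as for Dll1, Notch4, Hey2 and Heyl, limit what could be detected. Mean levels were also taken in other units or with a lane left out. Of these 60 mean levels, 44 stayed within the gene's mean spread between the lanes of a day and 16 did not.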
